A study of Mus musculus with 26 samples.

Results

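The effect of added FGF4 on the transcriptome of the mouse inner cell mass (ICM) was estimated over 26 single-ICM libraries, all of the libraries in the study, with the PI3K inhibitor LY294002 (LY) held as a second factor. The 14 libraries with FGF4 came from 8 FGF4 and 6 LY+FGF4 ICMs, and the 12 libraries without it came from 5 DMSO and 7 LY ICMs. Libraries were assigned to either side by their treatment labels. All embryos were CD-1, were collected as morulae at E2.75 (embryonic day) and spent 24 h in KSOM medium, and their ICMs were isolated by immunosurgery, which lyses the outer cells, after removal of the zona pellucida. FGF4 ICMs received FGF4 with heparin at 1 µg/ml, LY+FGF4 ICMs received the same together with 10 µM LY, DMSO ICMs received the vehicle, and LY ICMs received 10 µM LY. No group was labelled as receiving heparin alone, so effects of FGF4 and of heparin cannot be told apart. Embryos of 5 litters were mixed before they were shared out, so each library is a separate embryo of unknown litter.

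FGF4 is a secreted growth factor that is made by cells taking the epiblast fate and acts, with heparan sulphate as a cofactor, through the receptor tyrosine kinases FGFR1 and FGFR2. Receptor activation feeds the RAS, MEK and ERK cascade, whose target genes include phosphatases and Sprouty proteins that restrain the same cascade. In the mouse ICM this signal favours primitive endoderm, marked by GATA6, SOX17 and GATA4, over epiblast, marked by NANOG. LY294002 blocks PI3K, a second branch downstream of many receptor tyrosine kinases.

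Levels are TPM values (read abundance corrected for transcript length and scaled to the same total in every library) as computed by the authors. An FGF4 coefficient is the difference, with FGF4 minus without FGF4, in mean log2(TPM + 1) from an additive limma model with the factors FGF4 and LY, so a value of 1 is a doubling for abundant genes and understates the change of scarce ones. A gene is called higher or lower where its Benjamini-Hochberg adjusted p, over all genes tested, was under 0.05. Of 12034 genes tested, 1553 were called (12.9%), of which 536 were higher (4.45%) and 1017 lower (8.45%) with FGF4. The median called coefficient was 1.04 among higher genes and -1.44 among lower genes. The coefficient passed 2 in size for 81 of the higher and 228 of the lower genes.

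The number of detected genes also moved with FGF4. Genes listed at a TPM of at least 1 numbered 7486, 9345 and 10871 (lowest, median and highest) in libraries with FGF4, against 9860, 10207.5 and 11367 in libraries without FGF4. The difference with LY held was -1072 genes (two-sided permutation test of 100000 resamples within LY backgrounds, p = 0.0005). It was uneven between backgrounds, with medians of 10504.5 in FGF4 against 10692 in DMSO, and of 8650.5 in LY+FGF4 against 10089 in LY. Every LY+FGF4 ICM (highest 9534) listed fewer genes than every LY ICM (lowest 9860), while the FGF4 and DMSO ranges overlapped. The 6 libraries with fewer than 9000 genes were FGF4 replicates 2 and 3 and LY+FGF4 replicates 2, 3, 5 and 8. When this number was entered as a covariate 370 genes were called, 189 higher and 181 lower, and 320 of them were among the 1553. Of 51 named genes that were called, 33 kept the call under this covariate. The 18 that lost it were Cdkn1c, Cldn7, Dusp6, Eno1, Gata6, Msmo1, Myc, Nop16, Ooep, Pfkp, Pou5f1, Prdm14, Serhl, Slc7a1, Tdgf1, Top2a, Wac and Wars. Without the 6 libraries 1219 genes were called, 530 higher and 689 lower, of which 894 were among the 1553. The coefficient was negative in 60.8% of all tested genes, with a median of -0.19, and quantile normalization moved it to -0.02 and the calls to 730 higher and 874 lower. Read depths are not given in the file, so the part of depth in these counts was not tested beyond these settings. Y-linked genes summed to at least 5 TPM in 3 of 14 libraries with FGF4, against 7 of 12 without FGF4, so embryo sex was not balanced. By group these were 2 of 8 FGF4 against 2 of 5 DMSO ICMs, and 1 of 6 LY+FGF4 against 5 of 7 LY ICMs. With the Y-linked level as a covariate 1190 genes were called.

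The ligand itself showed the clearest separation. Fgf4 was listed at 0 TPM in 13 of 14 libraries with FGF4 and at 5.72 TPM in the other, FGF4 replicate 6, against 16.06, 33.2 and 80.2 TPM (lowest, median and highest) in libraries without FGF4. Every library with FGF4 lay below every library without it. The coefficient was -5.05 ± 0.35 (SE, limma, adjusted p = 1.14e-10), and it was -5.15 without LY and -4.94 with LY. The transcript of the added factor was thus lower where the protein had been supplied.

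Fgf4, the receptor gene Fgfr2 and the epiblast gene Nanog are shown with the 250 bases before their annotated start, because ligand, receptor and epiblast factor are the 3 roles that the comparison turns on and because they moved in opposite directions. These 3 were chosen after motif matches had been seen, and the windows of the other 4 called panel genes in the table, Klf2, Pdgfra, Pou5f1 and Dusp6, held 0 matches each. The sequences are RefSeq, GRCm38.p6, read 5′ to 3′ on the gene's own strand. Nanog had 2 annotated starts with a window, of which the first listed is shown, and Fgf4 and Fgfr2 had 1 each. They span chr7:144861136-144861385 on the plus strand for Fgf4, chr7:130266809-130267058 on the minus strand for Fgfr2 and chr6:122707239-122707488 on the plus strand for Nanog.
Fgf4: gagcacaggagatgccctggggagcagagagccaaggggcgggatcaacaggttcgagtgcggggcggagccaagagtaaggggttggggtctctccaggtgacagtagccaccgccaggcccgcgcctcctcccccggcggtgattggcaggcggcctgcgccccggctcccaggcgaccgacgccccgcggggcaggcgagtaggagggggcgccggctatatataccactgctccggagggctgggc
Fgfr2: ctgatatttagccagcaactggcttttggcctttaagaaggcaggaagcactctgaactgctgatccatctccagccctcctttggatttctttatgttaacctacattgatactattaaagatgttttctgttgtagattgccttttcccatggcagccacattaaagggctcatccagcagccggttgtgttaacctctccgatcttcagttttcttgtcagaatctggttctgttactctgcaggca
Nanog: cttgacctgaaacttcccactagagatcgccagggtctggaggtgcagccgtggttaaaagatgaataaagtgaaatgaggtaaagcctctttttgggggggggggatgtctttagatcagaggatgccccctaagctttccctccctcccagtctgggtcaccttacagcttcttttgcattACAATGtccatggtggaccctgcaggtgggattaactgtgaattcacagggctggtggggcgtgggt
Capitals mark matches on either strand to the core letters of 3 factor families. For ETS factors, which carry ERK signals to promoters, the letters searched were CCGGAAG. For the factors of the family of Gata4 and Gata6 they were AGATAA. For SOX factors they were ACAATG, and matches to different families did not overlap. The 1 match was the SOX letters of Nanog at bases -67 to -62 from the start, and no match was found in the windows of Fgf4 and Fgfr2. Among all 32851 RefSeq windows of this length the ETS letters were found in 6.91%, the GATA letters in 9.99% and the SOX letters in 10.7%. Of the tested genes with a window, the ETS letters were found in 16.5% of 394 higher genes, 11.9% of 772 lower genes and 15.5% of all 9090. The GATA letters were found in 5.33% of the higher, 6.35% of the lower and 5.52% of all these windows, and the SOX letters in 5.58%, 5.31% and 5.86%.

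**Figure D1:**
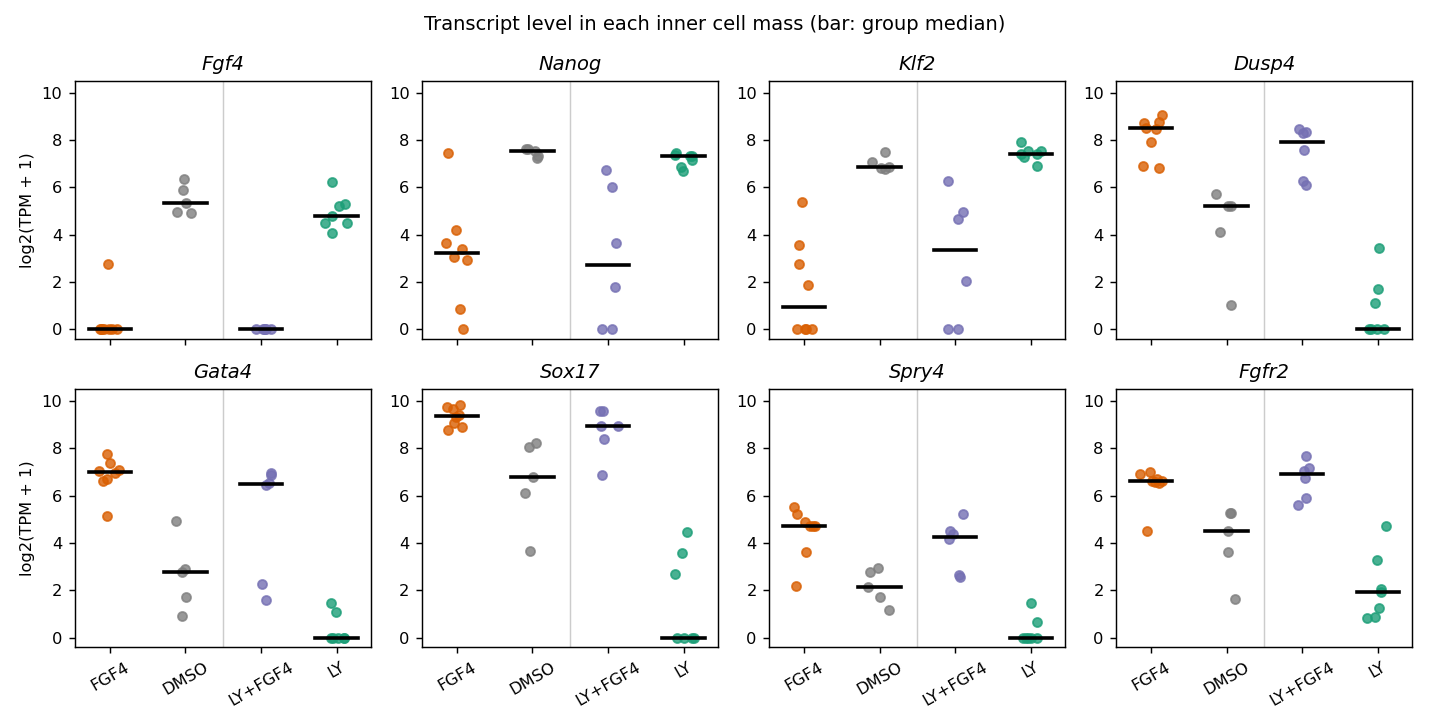
Levels of 8 genes as log2(TPM + 1) in each of the 26 ICMs by group, FGF4 and DMSO left of the grey line and LY+FGF4 and LY right of it, with 1 point per ICM and a bar at the group median. Fgf4, Nanog and Klf2 medians were lower with FGF4 in both backgrounds, the other 5 were higher, and FGF4 replicate 6 is the high Nanog point at 176 TPM.

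Epiblast genes fell with FGF4. Of 14 genes on an epiblast list 12 were tested, 9 were called lower and 0 higher, with a median coefficient of -2.63. With the genes-listed covariate 6 were lower at a median of -2.46, and without the 6 libraries of fewer than 9000 genes 8 were lower. Nanog, the homeodomain factor that defines the epiblast, was at 0, 8.49 and 176 TPM (lowest, median and highest) with FGF4, against 101, 159 and 198 TPM without FGF4. Most libraries with FGF4 were far below the range without it, but FGF4 replicate 6 at 176 TPM and LY+FGF4 replicate 8 at 105 TPM lay within it. The Nanog coefficient was -4.20 ± 0.67 (SE, limma, adjusted p = 0.000115). Klf2, a Krüppel-like factor of naive pluripotency, was at 0, 2.92 and 77.3 TPM with FGF4, against 109, 163 and 241 TPM without FGF4. Its groups did not overlap, and the coefficient was -4.87 ± 0.64 (SE, limma, adjusted p = 1.2e-05).

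Other epiblast genes followed with smaller or more variable changes. Tdgf1, the NODAL co-receptor, was at 0, 18.6 and 83.3 TPM with FGF4, against 34.1, 134 and 317 TPM without FGF4, and its coefficient was -3.18. Tdh, the threonine dehydrogenase of mouse pluripotent cells, had a coefficient of -3.13 and Otx2, a homeodomain factor of the later epiblast, -2.84. Gdf3, a TGF-beta family ligand, had a coefficient of -2.42, Prdm14, a repressor of FGF receptor genes in mouse embryonic stem cells, -1.99, and Utf1, a chromatin-associated pluripotency factor, -1.07. The call on Prdm14 was lost, at an adjusted p up to 0.137, with the genes-listed covariate and without the 6 libraries of fewer than 9000 genes. Sox2, Esrrb and Bmp4 did not pass the test. Sox2 was at 0, 19.9 and 110 TPM with FGF4, against 4.1, 31.6 and 60.3 TPM without FGF4, with wide overlap and a coefficient of -0.60 ± 0.55 (SE).

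Genes on a naive pluripotency list did not move as a block. Of 16 genes on that list, all tested and some also on the epiblast list, 8 were lower and 3 higher, with a median coefficient of -0.62. The lower genes included Nanog, Klf2 and Prdm14, which are on the epiblast list. These counts were 3 lower and 1 higher with the genes-listed covariate. Pou5f1, which encodes OCT4, stayed abundant at 538, 987 and 1495 TPM with FGF4, against 936, 1370 and 1698 TPM without FGF4. Its coefficient was -0.54 ± 0.10 (SE, limma, adjusted p = 0.000902), and the call was lost at an adjusted p of 0.0861 with the genes-listed covariate. Dppa3, a maternal and germline factor, had a coefficient of -1.13, Tfcp2l1 -0.78 and Zfp42, which encodes REX1, -0.63. The 3 higher genes were Sall4 at 1.05, Klf5 at 0.86 and Tbx3 at 0.79, all transcription factors of the ICM.

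Primitive endoderm transcription factors rose. Sox17, an endodermal SOX factor, was at 115, 589 and 910 TPM with FGF4, against 0, 11.4 and 299 TPM without FGF4. Only the DMSO ICMs, at 11.7 to 299 TPM, overlapped the range with FGF4, and the LY ICMs were at 0 to 21.02 TPM. That overlap was with LY+FGF4 ICMs, at 115 to 768 TPM, since FGF4 ICMs were at 431 to 910 TPM. Within each LY background the Sox17 ranges did not overlap. The Sox17 coefficient was 5.02 ± 0.65 (SE, limma, adjusted p = 1.17e-05). Gata4, a later factor of the lineage, was at 1.97, 109 and 216 TPM with FGF4, against 0, 0.99 and 29.1 TPM without FGF4. The lowest Gata4 values with FGF4, 1.97 and 3.77 TPM, belonged to LY+FGF4 replicates 8 and 3 and overlapped the DMSO range only. Within each LY background the Gata4 ranges did not overlap. They were 34.1 to 216 TPM in FGF4 against 0.88 to 29.1 TPM in DMSO. In LY+FGF4 they were 1.97 to 125 TPM, against 0 to 1.74 TPM in LY. The Gata4 coefficient was 4.48 ± 0.55 (SE, limma, adjusted p = 5.45e-06).

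Gata6, the earliest factor of the lineage, which all ICM cells express at first, changed little in comparison. It was at 146, 316 and 603 TPM with FGF4, against 135, 193 and 312 TPM without FGF4. The ranges overlapped, although FGF4 replicates 1, 2, 4 and 5 and LY+FGF4 replicates 2, 6 and 7 lay above the range without FGF4. The coefficient was 0.64 ± 0.21 (SE, limma, adjusted p = 0.0395), and this call was lost in 16 of 26 fits that left out 1 library, with adjusted p up to 0.0738. Pdgfra, the receptor that marks primitive endoderm cells, was at 66.1, 292 and 721 TPM with FGF4, against 0.4, 49.1 and 118 TPM without FGF4, with a coefficient of 3.19 ± 0.46 (SE).

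Over the whole primitive endoderm list, 19 of 24 genes were tested, 9 were higher and 0 lower, and the median coefficient was 0.74. The higher count was 6 with the genes-listed covariate, at a median of 1.18, 6 with the trophectoderm covariate, at a median of 0.77, and 8 without the 6 libraries of fewer than 9000 genes. Dkk1, a secreted WNT antagonist, had a coefficient of 3.77, Aqp8, a water channel, 3.58, Foxq1, a forkhead factor, 2.70, Pth1r, the parathyroid hormone receptor of the parietal endoderm, 2.60, and Lrp2, the endocytic receptor megalin, 1.30. Other members of the list did not pass the test. Sox7 was listed at 0 TPM in 9 of 14 libraries with FGF4 and in 12 of 12 without FGF4, and Bmp2 showed the same counts. Hnf4a, a hepatocyte nuclear factor gene, had a coefficient of -2.32 ± 0.83 (SE, limma, adjusted p = 0.0624). In these whole-ICM libraries a change in the number of cells of a type and a change in RNA per cell cannot be told apart.

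Mean log2(TPM + 1) over the epiblast list was 2.42, 3.66 and 5.01 (lowest, median and highest) with FGF4, against 5.19, 5.63 and 6.47 without FGF4, and the groups did not overlap. The same mean over the primitive endoderm list was 2.87, 4.39 and 5.58 with FGF4, against 1.81, 2.30 and 3.92 without FGF4. FGF4 replicate 3 and LY+FGF4 replicates 3, 5, 6 and 8 lay inside the range without FGF4 on the endoderm list, and 4 of these 5 libraries had fewer than 9000 genes listed. The upper part of that range came from DMSO ICMs, at 2.53 to 3.92, against 3.50 to 5.58 in FGF4 ICMs. In the LY background all LY+FGF4 ICMs, at 2.87 to 4.67, lay above all LY ICMs, at 1.81 to 2.30. FGF4 replicate 6 had the highest epiblast mean with FGF4, at 5.01, together with an endoderm mean of 4.28.

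**Figure D2:**
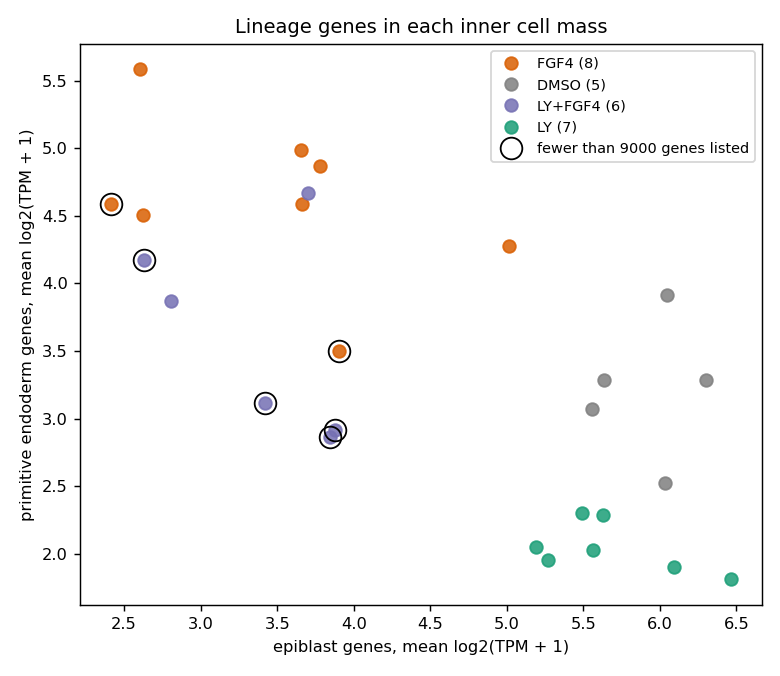
Mean log2(TPM + 1) of the epiblast list (x axis) and the primitive endoderm list (y axis) in each of the 26 ICMs, coloured by group, with rings around the 6 libraries of fewer than 9000 genes. All 14 points with FGF4 lie at or left of 5.01 on the epiblast axis and all 12 without FGF4 at or right of 5.19.

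Some genes of the basement membrane, the matrix of laminin and collagen IV that primitive endoderm secretes, rose as well. Of 24 genes, all tested, 10 were higher, 1 was lower and 13 did not pass the test, with a median coefficient of 0.85. With the genes-listed covariate 8 were higher and the median was 1.16, and with the trophectoderm covariate 6 were higher and the median was 0.33. Serpinh1, the collagen chaperone HSP47, was at 0, 353 and 1090 TPM with FGF4, against 0, 3.62 and 207 TPM without FGF4, and its coefficient was 4.78 ± 0.83 (SE, limma, adjusted p = 0.000288). Col4a1, a collagen IV chain, was at 37.5, 249 and 571 TPM with FGF4, against 11.9, 44.5 and 78.7 TPM without FGF4, and its coefficient was 2.26 ± 0.31 (SE, limma, adjusted p = 2.17e-05). Sparc, a collagen-binding matrix protein, had a coefficient of 2.31, Col4a2 1.74, the laminin gene Lamc1 1.68 and the perlecan gene Hspg2 1.68. The prolyl hydroxylases P4ha1 and P4ha2, which modify collagen, had coefficients of 1.22 and 1.77, and the laminin receptor gene Itga6 1.42. Lama1 had a coefficient of 2.57 ± 0.79 (SE, limma, adjusted p = 0.0295), lost without DMSO replicate 6, 7 or 9, and also, at an adjusted p of 0.365, with the trophectoderm covariate. Its group medians were 120 TPM in FGF4 against 0.45 TPM in DMSO, and 3.81 TPM in LY+FGF4 against 0 TPM in LY. The abundant laminin gene Lamb1 had a coefficient of 1.499 ± 0.642 (SE) and did not pass the test. Fn1, fibronectin, was the lower gene, at -1.28.

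The readout of ERK signalling was uneven across its target genes. Of 24 target genes 20 were tested, 6 were higher and 1 lower, with a median coefficient of 0.22. Dusp4, an ERK phosphatase, was at 67.0, 321 and 540 TPM with FGF4, against 0, 1.73 and 52.6 TPM without FGF4, and the groups did not overlap. Its coefficient, 5.29 ± 0.53 (SE, limma, adjusted p = 2.5e-07), was the largest of all 12034 genes. Spry4, a Sprouty inhibitor of receptor signalling, was at 3.57, 23.5 and 44.4 TPM with FGF4, against 0, 0.915 and 6.6 TPM without FGF4, with a coefficient of 2.97 ± 0.42 (SE, limma, adjusted p = 2.57e-05). Etv4, an ETS factor, had a coefficient of 2.97, Spred1, a RAS pathway inhibitor, 2.42, and Phlda1, an ERK-responsive gene, 1.55.

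Dusp6, the ERK-specific phosphatase often taken as a reporter of FGF signalling, was at 0, 15.03 and 44.5 TPM with FGF4, against 0, 4.33 and 27.8 TPM without FGF4. Its coefficient was 1.82 ± 0.60 (SE, limma, adjusted p = 0.0431), and the call was lost in 16 of 26 fits that left out 1 library, with adjusted p up to 0.0909. Etv5, the paralogue of Etv4, was at 41.0, 141 and 661 TPM with FGF4, against 21.5, 258 and 465.7 TPM without FGF4, with a coefficient of 0.09 ± 0.45 (SE). The immediate early genes Egr1 and Fos had coefficients of -0.51 ± 0.45 and -0.57 ± 0.58 (SE) and did not pass the test, nor did Spry1, Spry2, Dusp5 and Il17rd. Myc, a growth-promoting factor induced by ERK in many cells, was the lower gene. It was at 0, 27.7 and 97.5 TPM with FGF4, against 29.1, 110 and 285 TPM without FGF4, with a coefficient of -3.04 ± 0.78 (SE, limma, adjusted p = 0.00913). The Myc call was lost, at an adjusted p up to 0.481, with the genes-listed covariate, with the trophectoderm covariate and without the 6 libraries of fewer than 9000 genes.

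The receptors differed. Fgfr2 was at 21.9, 101 and 203 TPM with FGF4, against 0.76, 5.91 and 37.7 TPM without FGF4, with a coefficient of 3.50 ± 0.48 (SE, limma, adjusted p = 2.17e-05). Only FGF4 replicate 6, at 21.9 TPM, lay inside the range without FGF4. Fgfr1 was at 20.1, 117 and 258 TPM with FGF4, against 57.2, 81.7 and 125 TPM without FGF4, with a coefficient of 0.22 ± 0.28 (SE) that did not pass the test. Of 26 genes encoding FGF pathway components, all tested, 3 were higher and 1 lower, a share called close to the 12.9% of all tested genes, with a median coefficient of -0.06. The higher genes were Fgfr2, Flrt3, a transmembrane protein that binds FGF receptors, and Ext1, a heparan sulphate polymerase, at 3.50, 4.82 and 1.58. Map2k2, which encodes MEK2, was lower, at -0.93, while RAS, RAF, SOS and ERK genes did not pass the test. Flrt3 was at 0, 187 and 548 TPM with FGF4, against 0, 0 and 51.6 TPM without FGF4.

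**Figure D3:**
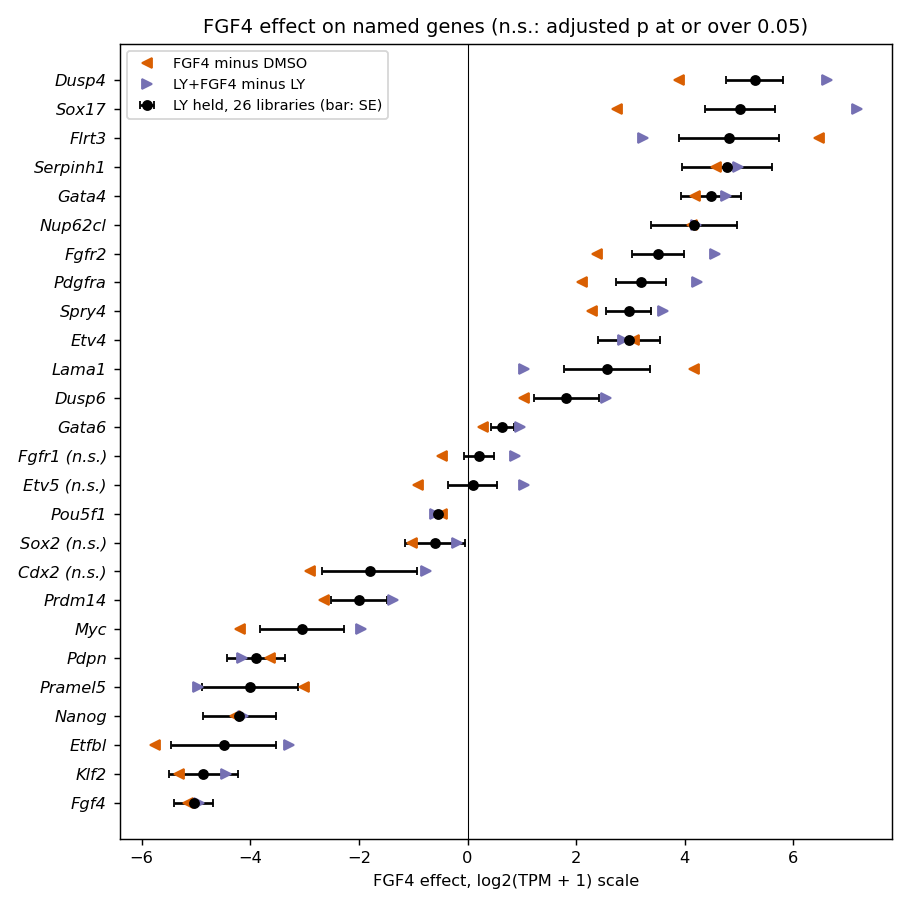
FGF4 effect on 26 named genes as differences in log2(TPM + 1), with FGF4 minus without FGF4. Black points with bars are the coefficient and its SE over 26 libraries with LY held, and triangles are the separate effects FGF4 minus DMSO and LY+FGF4 minus LY. Coefficients run from 5.29 for Dusp4 to -5.05 for Fgf4, and the triangles stand on opposite sides of 0 for Fgfr1 and Etv5.

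Genes of other signals are given beside shares of 4.45% higher and 8.45% lower over all tested genes. On the LIF and STAT3 list, 10 of 10 genes were tested, 1 was higher and 4 lower, with a median coefficient of -0.62. With the genes-listed covariate 1 was lower. Bcl3, an inhibitor-of-kappa-B family cofactor, was listed at 0 TPM in 13 of 14 libraries with FGF4 and reached 1.51 TPM, against 0, 13.99 and 36.6 TPM (lowest, median and highest) without FGF4, and its coefficient was -3.31 ± 0.48 (SE, limma, adjusted p = 3.27e-05). Socs3, the feedback inhibitor of STAT3 signalling, had a coefficient of -2.66 and the kinase gene Pim3 -1.93. Il6st, which encodes the shared receptor chain gp130, was the higher gene, at 6.0, 36.0 and 63.9 TPM with FGF4, against 0, 3.01 and 19.8 TPM without FGF4, with a coefficient of 2.78 ± 0.46 (SE). Stat3 itself had a coefficient of 0.01 ± 0.17 (SE).

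On the WNT list, 16 of 21 genes were tested and 4 were higher, with a median coefficient of 0.04. The higher count was 2 with the genes-listed covariate and 2 without the 6 libraries of fewer than 9000 genes, where 1 was lower. Beside Dkk1 they were the receptor gene Fzd7 at 2.01, the beta-catenin gene Ctnnb1 at 1.09 and the feedback gene Axin2 at 1.09. On the NODAL and BMP list, 17 of 23 genes were tested, Gdf3 and Tdgf1 were lower and the inhibitor gene Smad7 was higher, at 1.81. The median coefficient there was 0.20, and the share called was near that of all tested genes.

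Calls among lysosomal genes and genes of sterol and lipid synthesis were mainly lower, as were 65.5% of all calls. Of 34 lysosome genes, all tested, 10 were lower and 0 higher, with a median coefficient of -0.52. Npc2, a lysosomal cholesterol carrier, was at 62.3, 182 and 518 TPM with FGF4, against 275, 631 and 998 TPM without FGF4, and its coefficient was -1.79 ± 0.25 (SE, limma, adjusted p = 2.41e-05). Psap, the precursor of the saposins, had a coefficient of -1.12, the progranulin gene Grn -1.33 and the protease gene Ctsd -0.89. Of 29 genes of sterol and lipid synthesis, all tested, 8 were lower and 1 higher, with a median coefficient of -0.63. Msmo1, a sterol oxidase, was at 0, 43.7 and 466.4 TPM with FGF4, against 58.6, 285 and 641 TPM without FGF4, with a coefficient of -3.14, and Insig1, a sterol-regulated feedback protein, had a coefficient of -1.63. The Msmo1 call was lost, at an adjusted p of 0.0647, with the genes-listed covariate. Acly, which makes cytosolic acetyl-CoA, was the higher gene, at 0.73. Across the other settings the lower count ran between 1 and 10 for this list and between 5 and 10 for the lysosome list.

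Glycolysis genes were divided, with 3 higher and 3 lower of 19 tested from a list of 21 and a median coefficient of 0.37. None of them was called with the genes-listed covariate, and 2 were, both lower, with the trophectoderm covariate. The phosphofructokinase genes Pfkp and Pfkl had coefficients of 2.08 and 1.27 and Eno1 0.79, whereas the hexokinase gene Hk1 had -1.65, Gpi1 -1.07 and Gapdh -0.68. On the list of ATF4 targets and amino acid genes, 29 of 32 genes were tested, 4 were higher and 1 lower, with a median coefficient of 0.37. The share called was near the 12.9% of all tested genes, and with the genes-listed covariate 1 was higher and 0 lower. The amino acid transporter gene Slc7a1 had a coefficient of 1.80, the asparagine synthetase gene Asns 1.19, the stress-induced gene Sesn2 0.77 and the tryptophan tRNA synthetase gene Wars 0.69. Cth, an enzyme of cysteine synthesis, was lower, at -1.51.

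On the lists of ribosome biogenesis, cell cycle, and p53 and apoptosis genes the shares called were near the 12.9% of all tested genes. Of 30 ribosome biogenesis genes, all tested, 1 was higher and 2 lower, with a median coefficient of -0.03. The nucleolar genes Npm1 and Fbl were lower, at -0.51 and -0.35, and Nop16 was higher, at 0.68. Of 35 cell cycle genes 34 were tested, 4 were higher and 1 lower, with a median of 0.10, and with the genes-listed covariate none was called. Top2a, the topoisomerase of dividing cells, had a coefficient of 1.32 and the cell cycle inhibitor gene Cdkn1c -2.74. Of 22 p53 and apoptosis genes 19 were tested, 1 was higher and 2 lower, with a median of -0.75, which was -0.10 with the genes-listed covariate. Pmaip1, which encodes the pro-apoptotic protein NOXA, was at 43.5, 251 and 497 TPM with FGF4, against 10.7, 32.8 and 77.4 TPM without FGF4, with a coefficient of 2.68 ± 0.34 (SE, limma, adjusted p = 9.41e-06). The BCL2-family gene Bcl2l14 had a coefficient of -3.88. Eno1, Gapdh, Npm1 and Dppa3 have near-identical processed copies in the genome, so their levels are uncertain to that extent.

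Markers of other cells were measured beside these groups. Trophectoderm, the outer layer removed by immunosurgery, was represented by 24 genes, of which 20 were tested, 5 were lower and 2 higher, with a median coefficient of -0.80. The lower genes were the glycerol channel gene Aqp3 at -3.09, the transcription factor genes Hand1 at -2.98 and Tfap2c at -2.66, the claudin gene Cldn4 at -2.02 and the 14-3-3 gene Sfn at -1.42. The 2 higher genes, Fgfr2 and Lrp2, also stand on lists above. The defining factor Cdx2 was not at 0 throughout, at 0, 1.16 and 282 TPM with FGF4, against 1.26, 10.7 and 178 TPM without FGF4, with a coefficient of -1.804 ± 0.874 (SE) that did not pass the test. The value of 282 TPM belonged to FGF4 replicate 6. The keratin gene Krt8 was at 67.7, 318 and 432 TPM with FGF4, against 176, 365 and 531 TPM without FGF4. Mean log2(TPM + 1) over the list was 2.30, 3.34 and 4.88 with FGF4, against 3.80, 4.12 and 5.01 without FGF4. With that mean as a covariate 641 genes were called, 236 higher and 405 lower. The 13 named genes that lost their call were Cldn7, Dusp6, Eno1, Gata6, Lama1, Myc, Nop16, Ooep, Pfkp, Serhl, Slc7a1, Wac and Wars. Of 20 epithelial junction genes, all tested, 4 were lower and 1 higher, and none was called with the genes-listed covariate. Of 15 oocyte-derived transcripts 8 were tested and 2, Khdc3 at -1.12 and Ooep at -1.58, were lower. None of 11 blood and fibroblast genes passed the filter, and their highest value in any library was 5.93 TPM.

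**Figure D4:**
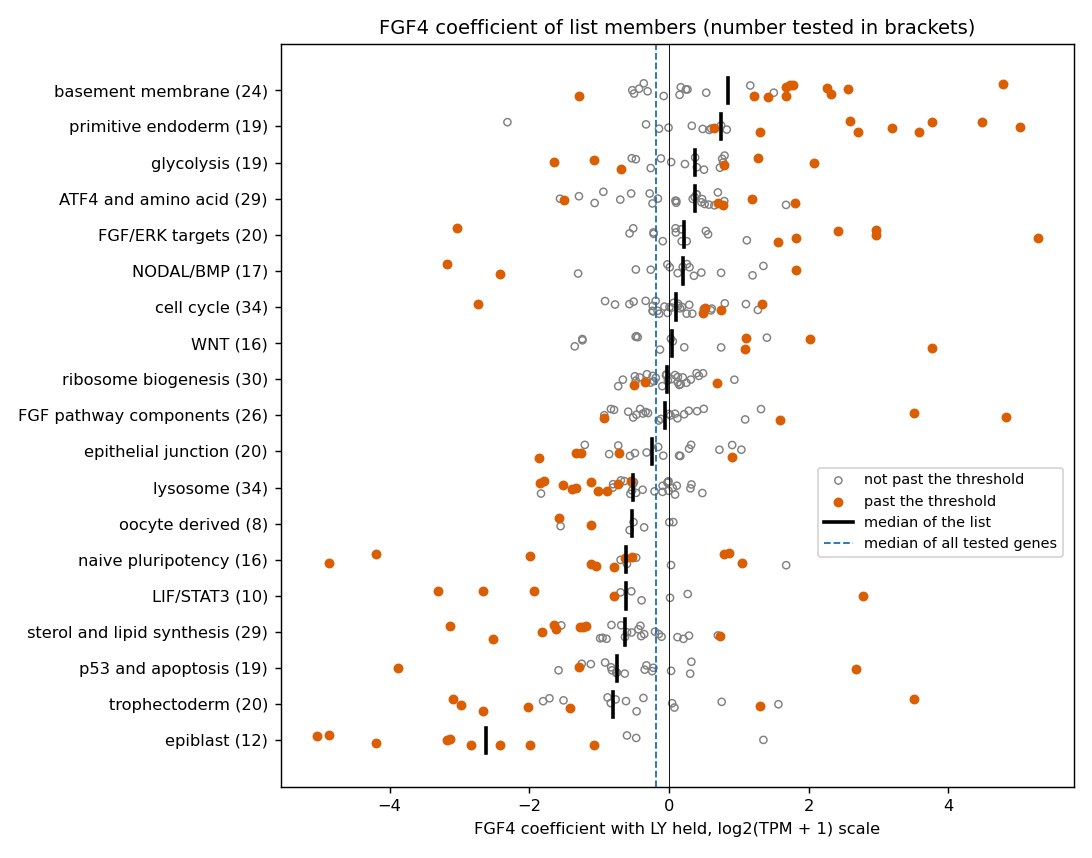
FGF4 coefficient, in log2(TPM + 1) with LY held, of every tested member of 19 gene lists, ordered by the median of the list (black bar). Filled points passed the threshold, open points did not, and the dashed line is the median of all 12034 tested genes, -0.19. List medians run from 0.85 for basement membrane to -2.63 for epiblast.

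Outside these lists, the 12 named genes with the largest and smallest coefficients added Nup62cl, Etfbl, Pramel5 and Pdpn. Nup62cl, an X-linked gene similar to the nucleoporin gene Nup62, was at 0, 217 and 604 TPM with FGF4, against 0, 6.06 and 65.4 TPM without FGF4, and its coefficient was 4.18 ± 0.80 (SE, limma, adjusted p = 0.000768). Pdpn, the membrane glycoprotein podoplanin, was listed at 0 TPM in 9 of 14 libraries with FGF4 and reached 27.96 TPM, against 3.67, 30.4 and 118 TPM without FGF4, and its coefficient was -3.90. Pramel5, at -4.005, belongs to a multigene family of near-identical copies, so its level is uncertain. Etfbl, at -4.49, had medians of 0 TPM in FGF4 against 342 TPM in DMSO and of 0 TPM in both LY+FGF4 and LY, where single LY ICMs reached 380 TPM.

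In 4 genes (0.0332% of those tested) all libraries with FGF4 lay above all libraries without it, and in 10 genes (0.0831%) all lay below. Some of these genes are named here, chosen after their values were seen. Uap1, which makes UDP-N-acetylglucosamine, was at 260, 536 and 968 TPM with FGF4, against 60.1, 108 and 170 TPM without FGF4, with a coefficient of 2.34 ± 0.20 (SE, limma, adjusted p = 1.07e-08). Dlc1, a GTPase-activating protein gene, had a coefficient of 2.00, and Morf4l1, a chromatin protein gene, 1.07. Rhoa, the GTPase gene, was at 142, 299 and 506 TPM with FGF4, against 518, 628 and 849 TPM without FGF4, with a coefficient of -1.03 ± 0.15 (SE). The sorting nexin gene Snx5 had a coefficient of -1.06, and Nccrp1, an F-box-associated-domain gene, -2.99. Nccrp1 was scarce, at 0 to 1.68 TPM with FGF4 against 2.11 to 22.1 TPM without FGF4.

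The additive model assumes 1 FGF4 effect in both LY backgrounds, so the effect was also estimated within each background. Both estimates came from 1 fit to all 26 libraries, with 1 mean per group and a shared spread. FGF4 minus DMSO called 294 genes (2.44%), 118 higher (0.981%) and 176 lower (1.46%). LY+FGF4 minus LY called 758 genes (6.3%), 216 higher (1.79%) and 542 lower (4.5%). The count without LY was 114 genes without DMSO replicate 7, 144 without DMSO replicate 6 and 177 without DMSO replicate 3. Entering the genes-listed covariate gave 181 calls without LY and 108 with LY. Entering the Y-linked level instead gave 312 calls without LY and 539 with LY. The contrasts share no library in their means but share 1 spread estimate per gene, so their calls are not independent. They called 136 genes in common, which was 46.3% of the calls without LY and 17.9% of the calls with LY, and all 136 had the same sign, 54 higher and 82 lower. Of the 294 genes called without LY, 278 had the same sign with LY, and of the 758 called with LY, 690 had the same sign without LY, against 66.9% of all tested genes. Across the 12034 genes the effects had a Pearson r of 0.46 and a Spearman rho of 0.43, as a description over genes that are not independent. The median SE of an effect was 0.44 with all libraries, 0.62 without LY and 0.61 with LY.

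**Figure D5:**
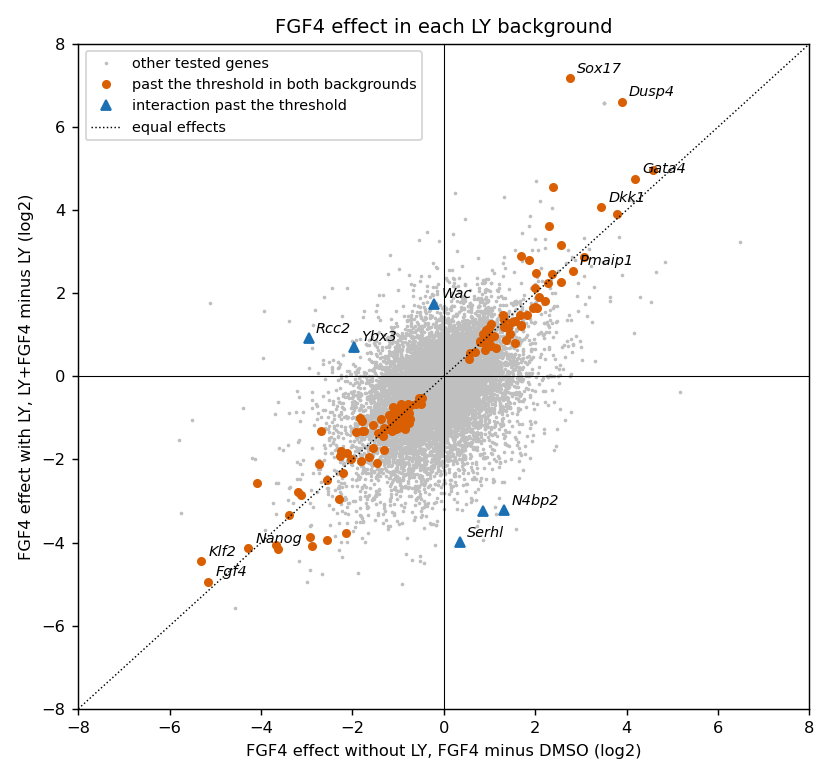
FGF4 effect on each of 12034 genes without LY (x axis, FGF4 minus DMSO) and with LY (y axis, LY+FGF4 minus LY), both in log2(TPM + 1). Orange points are the 136 genes called in both backgrounds, all with the same sign on both axes, blue triangles are the 6 genes whose interaction passed the threshold, and the dotted line marks equal effects.

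The test of the difference itself, the FGF4 by LY interaction, passed in 6 genes (0.0499%), in 3 with a higher (0.0249%) and in 3 with a lower (0.0249%) effect with LY than without it, and 726 genes had an unadjusted p under 0.05. Leaving out LY+FGF4 replicate 3 raised the count to 11, leaving out LY replicate 4 or 8 lowered it to 2, and leaving out DMSO replicate 3 or 8 lowered it to 3. Of the 1553 genes called with LY held, 2 were among the 6, Wac and Serhl. Ybx3, a cold-shock-domain RNA-binding protein gene, had group medians of 90.9 TPM in FGF4 against 346 TPM in DMSO, and of 317 TPM in LY+FGF4 against 183 TPM in LY. Its effect was -1.96 without LY and 0.71 with LY, so the pooled coefficient of -0.59 averaged estimates of opposite sign (interaction adjusted p = 0.000455, limma). Rcc2, a regulator of chromosome condensation, likewise had an effect of -2.96 without LY and 0.91 with LY. Its group medians were 46.9 TPM in FGF4 against 313 TPM in DMSO, and 77.8 TPM in LY+FGF4 against 58.5 TPM in LY. The effect with LY did not pass the threshold for Ybx3 (adjusted p = 0.086, limma) or Rcc2 (adjusted p = 0.212, limma). Wac, an adaptor of histone ubiquitination, had group medians of 298 TPM in FGF4 against 294 TPM in DMSO, and of 964 TPM in LY+FGF4 against 296 TPM in LY. Serhl had an effect of 0.35 without LY and -3.99 with LY, and N4bp2 an effect of 1.32 without LY and -3.23 with LY. The call on Wac in the additive model was lost in 11 of 26 fits that left out 1 library.

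For other genes the estimates in the backgrounds are given side by side, and their difference did not pass this test. Sox17 had an effect of 2.76 without LY and 7.18 with LY (interaction adjusted p = 0.143, limma), where its medians were 663 TPM in FGF4 against 110 TPM in DMSO, and 487 TPM in LY+FGF4 against 0 TPM in LY. Dusp4 had an effect of 3.90 without LY and 6.61 with LY, at medians of 362 TPM in FGF4 against 36.0 TPM in DMSO, and of 252 TPM in LY+FGF4 against 0 TPM in LY. Fgfr2 had 2.38 without LY and 4.57 with LY, and Pdgfra 2.11 without LY and 4.23 with LY. Lama1 had 4.17 without LY and 1.04 with LY, and Flrt3 6.48 without LY and 3.24 with LY. The interaction adjusted p (limma) was 0.581 for Dusp4, 0.696 for Fgfr2 and Pdgfra, 0.803 for Lama1 and 0.851 for Flrt3. In the same additive model the LY coefficient was negative and called for Sox17 at -2.66, Gata4 at -1.98, Dusp4 at -1.90 and Pdgfra at -1.57.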

How the data were processed

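RNA of 26 ICMs, 1 library each, was profiled by FLASH-seq, which copies full-length transcripts from very small inputs. The authors deposited TPM for each gene symbol, after trimming and de-duplication of reads, per the labels. STAR, RSEM and mm10 are named in the submitters' processing notes, without versions. No read counts were used, so depth is unknown. Of 55254 symbols, 53255 matched GENCODE M21.

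The 12034 genes that reached a TPM of 1 in 5 or more libraries were tested as log2(TPM + 1) with limma 3.58.1 in R 4.3.3 (empirical Bayes with trend and robust options), with FGF4 and LY as factors, equal library weights and Benjamini-Hochberg adjustment at 0.05. Effects within each LY background and the interaction came from a fit with 1 mean per group. The procedure was tested on simulated data. Named genes were a panel of 20, the 6 largest and 6 smallest coefficients among called genes with the same sign in both backgrounds and a mean of 5 TPM or more in the higher arm (predicted, Y-linked and Xist symbols left out), the 2 called members of each list with the smallest p, and up to 5 interaction genes; members of lists are also given, and some genes are not reported here. Promoter windows were found for 7 of 16 called panel genes with the same sign in both backgrounds. The comparison, the panel and the members of the 20 lists were chosen with earlier results of these data known, and no set test was run. Alternatives were pseudocounts, filters, scalings, weights, covariates, left-out libraries, a replicate block and other models. Each library is 1 embryo.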

Additional observations from a re-analysis of the deposited data

Results flagged for a closer look

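The FGF4 effect differed between LY backgrounds, by the interaction test, in 5 named genes. The effect with LY minus the effect without LY, on the log2(TPM + 1) scale, was 2.68 for Ybx3, 3.87 for Rcc2, 1.96 for Wac, -4.34 for Serhl and -4.55 for N4bp2.

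In 19 of 228 combinations of a named gene and a group, 1 library stood far from the others of its group by Dixon's test. The test flags about 1 in 20 groups by chance only where values are normally distributed. Where all other libraries of a group are at 0, any value above 0 is flagged whatever its size. This held for Fgf4 and Prdm14 among FGF4 ICMs and for Bcl3, Cdkn1c and Serhl among LY+FGF4 ICMs. In FGF4 replicate 6, Fgf4 was at 5.72 TPM where the other 7 libraries were at 0, Gata4 was at 34.1 TPM where the nearest library was at 98.0, and Fgfr2 was at 21.9 TPM where the nearest was at 92.6. This ICM also had the highest Nanog with FGF4, at 176 TPM, and the highest Cdx2 with FGF4, at 282 TPM. Its mean over the trophectoderm list, 4.78, was the highest among the 8 FGF4 ICMs. Elsewhere among FGF4 ICMs, Prdm14 was high at 3.09 TPM in replicate 7, Dusp6 was at 0 TPM and N4bp2 at 6.48 TPM in replicate 2, and Npm1 was low at 1355 TPM in replicate 4.

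Among LY+FGF4 ICMs, Myc was at 0 TPM in replicate 2, Nup62cl was at 0 TPM in replicate 5, Bcl3 was high at 1.51 TPM in replicate 7, Cdkn1c was high at 50.6 TPM in replicate 8, and replicate 6 had Pmaip1 low at 90.5 TPM and Serhl high at 2.16 TPM. Among DMSO ICMs, replicate 8 had Etv5 low at 125 TPM and Flrt3 high at 51.6 TPM. Among LY ICMs, Sox2 at 4.1 TPM and Bcl2l14 at 51.3 TPM were low in replicate 7, Etv4 was high at 26.2 TPM in replicate 4, and Top2a was low at 16.9 TPM in replicate 6. The causes of these values were not tested.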

How the results depend on the processing

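Of 51 called named genes, 32 kept their call in all 15 other settings and all 26 fits without 1 library, and 47 kept it in every fit without 1 library. The additive count was 370 with the genes-listed covariate, 641 with the trophectoderm covariate and 993 with the replicate block, and ran between 1289 and 1647 without 1 library. The count without LY was 187 with plain empirical Bayes, 1074 with library weights, 181 with the genes-listed covariate, 46 with the trophectoderm covariate, 464 without the libraries under 9000 genes, 41 with the replicate block and 114 to 432 without 1 library. The count with LY was 356 with library weights, 108 with the genes-listed covariate and 523 to 865 without 1 library. The interaction count was 28 without the libraries under 9000 genes, 2 with the replicate block and 2 to 11 without 1 library. The difference in genes listed was -1162 to -939.6 without 1 library. Residuals of libraries with the same replicate number were uncorrelated (median r -0.00406 over 31 pairs), and replicate numbers were not treated as pairs. This measure over all genes cannot show sharing within a subset of them. The Lama1 call was lost with the block. Coefficients that changed sign were uncalled: Etv5 (-0.063 with library weights, -0.16 to 0.23 without 1 library), N4bp2 (0.32, genes-listed covariate), Sox2 and Cdx2 (0.21 and 0.54, trophectoderm covariate) and Fgfr1 (-0.019 without the libraries under 9000 genes). The causes were not tested. With depth unknown, a 0 in these libraries is not absence.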
